A study of Mus musculus with 6 samples.

Results

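The Bcl2 family of apoptosis regulators was followed in primary mouse bone marrow-derived macrophages (BMDM) as 10 listed genes: Mcl1, Bcl2l1, Bcl2, Bcl2a1b, Bax, Bak1, Bcl2l11, Bid, Bad and Bbc3. Members were taken by gene name from the deposited differential expression table, and all 10 were found among its 14005 genes. PolyA-selected RNA was sequenced from 2 groups of 3 libraries. The first group was labelled Txn1 KO and carried the Txn1 allele Txn1tm1.1Ees/J together with B6.129P2-Lyz2tm1(cre)lfo/J, a Cre recombinase knocked into Lyz2, the lysozyme gene that myeloid cells express. The second group was wild type. The labels give C57BL/6J as the strain background, male and female material pooled, and name no treatment, for both groups. Txn1 encodes thioredoxin-1, a cytosolic disulfide reductase, and the stated question was how its loss affects genes of the NLRP1 inflammasome. Libraries carrying Cre without the Txn1 allele were not analysed here, so effects of the Cre insertion and of the Txn1 allele cannot be told apart.

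Bcl2 family proteins decide whether the outer mitochondrial membrane is opened during apoptosis. The effectors Bax and Bak form the pores, pro-survival proteins such as Mcl-1, Bcl-xL, Bcl-2 and A1 hold the effectors and their activators in check, and BH3-only proteins such as Bim, Bid, Bad and Puma sense damage or loss of survival signals and tip that balance. Mcl-1 and A1 are known as short-lived survival factors of myeloid cells. Thioredoxin-1 is known to bind the kinase ASK1, which acts upstream of JNK, and JNK can in turn act on Bim and other members.

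The BH3 segment is a short helix that takes part in binding among proteins of the family. Its coding sequences are shown because genes of opposite function hold it. In the coding sequence of the longest complete GENCODE M21 transcript, a search was made for a leucine codon, any 3 codons, a glycine, alanine or serine codon, and an aspartate codon. The pattern was found once in each of 9 members and not in Bcl2a1b. A segment that departs from this pattern would be missed by the search. Each line gives the strand of the gene, 5′ to 3′, with the leucine codon and the last 2 codons of the pattern in capitals.
Mcl1: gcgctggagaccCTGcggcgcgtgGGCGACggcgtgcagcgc
Bcl2l1: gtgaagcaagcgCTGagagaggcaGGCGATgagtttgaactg
Bcl2: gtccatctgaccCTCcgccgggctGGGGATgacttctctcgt
Bax: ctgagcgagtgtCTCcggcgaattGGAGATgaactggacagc
Bak1: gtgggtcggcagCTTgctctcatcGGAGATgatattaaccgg
Bcl2l11: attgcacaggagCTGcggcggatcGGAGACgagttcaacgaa
Bid: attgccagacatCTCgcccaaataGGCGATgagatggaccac
Bad: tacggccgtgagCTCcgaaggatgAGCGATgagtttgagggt
Bbc3: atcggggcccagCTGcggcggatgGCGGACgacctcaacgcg
The middle capital codon is a glycine codon in 7 of them, AGC (serine) in Bad and GCG (alanine) in Bbc3. On GRCm38 these segments lie at chr3:95659424-95659465 (Mcl1, plus strand, exon 1), chr2:152829694-152829735 (Bcl2l1, minus strand, exon 2), chr1:106712572-106712613 (Bcl2, minus strand, exon 1), chr7:45465994-45466035 (Bax, minus strand, exon 3), chr17:27022528-27022569 (Bak1, minus strand, exon 4), chr2:128147138-128147179 (Bcl2l11, plus strand, exon 3), chr6:120897286-120897327 (Bid, minus strand, exon 4), chr19:6950780-6950821 (Bad, plus strand, exon 3) and chr7:16313761-16313802 (Bbc3, plus strand, exon 3). The deposited values are whole-gene counts, so they cannot show which isoform of a member was expressed.

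Bcl2a1b has near-identical copies on chromosome 9, and the start of their coding sequences is shown because it holds 6 of the 12 positions at which the 3 copies measured differ over 519 coding bases. Capitals mark those positions.
Bcl2a1a: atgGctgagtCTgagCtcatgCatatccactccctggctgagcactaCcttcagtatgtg
Bcl2a1b: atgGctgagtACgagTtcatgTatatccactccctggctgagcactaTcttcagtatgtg
Bcl2a1d: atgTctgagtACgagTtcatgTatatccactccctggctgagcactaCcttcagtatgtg
These are coding bases 1 to 60, at chr9:88957051-88957110 (plus strand), chr9:89199360-89199419 (plus strand) and chr9:88731660-88731719 (minus strand) on GRCm38. Bcl2a1b was 98.8% identical to Bcl2a1d and 97.9% to Bcl2a1a, so reads could be shared among them and the counts of all 3 are uncertain, above all the few reads of Bcl2a1a.

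The libraries labelled Txn1 KO held 22508616 to 31127228 reads in listed genes and the wild-type libraries 29716640 to 38726953. Values are normalized counts, that is reads divided by 1 size factor per library by the authors. A member had 368 to 39002 reads in a library, which gives a counting error (1 SD) of 5.21% at the low end and 0.506% at the high end, covering counting error only. Txn1 had 12695, 11963 and 12390 normalized counts in the libraries labelled Txn1 KO, against 13176, 12155 and 12409 in wild type. These values overlapped (log2 -0.03, limma adjusted p = 0.686), while Lyz2 followed the labels in all 6 libraries (log2 -6.96), so the Txn1 label rests on the submitters. Macrophage markers such as Csf1r and Adgre1 were high in every library, with summed macrophage markers of 144160 to 144823 normalized counts in the libraries labelled Txn1 KO and 144254 to 147663 in wild type. Library 3 labelled Txn1 KO and wild-type library 1 also held liver transcripts. Alb was at 580.0 and 642.9 normalized counts there, and no other library exceeded 0.838. Summed hepatocyte markers (6 of 10 measured) were 1515 to 2243 in the libraries labelled Txn1 KO and 1411 to 2387 in wild type. Most of that sum was Trf in every library, with 1400 to 1504 normalized counts in those labelled Txn1 KO and 1398 to 1521 in wild type. Stromal markers summed to 1198 to 2093 normalized counts in the libraries labelled Txn1 KO, against 2605 to 2883 normalized counts in wild type, and 7 of the 10 fell. Megakaryocyte markers (2 of 5 measured) summed to 589 to 701 against 305 to 334 in wild type. The T cell marker Cd4, the only one of 7 measured, had 134 to 161 against 211 to 248. With no other T cell marker listed, Cd4 alone cannot show that T cells were present. Of 5 measured dendritic cell markers, Ccr7 rose (274 to 313 against 184 to 229.7) and the other 4, Flt3, Siglech, Xcr1 and Zbtb46, did not pass and overlapped between the groups; the 5 summed to 329 to 369.8 against 233 to 282. Neutrophil markers summed to 283 to 343 against 290.4 to 314, but single ones differed: Cxcr2 rose (37.7 to 58.0 against 13.2 to 13.4), S100a9 (38.3 to 54.5 against 72.3 to 96.4) and Ngp (21.1 to 30.1 against 33.6 to 57.9) fell, and S100a8 and Mpo did not pass. Summed markers of B cells and of mast cells or basophils overlapped, and none of those measured passed. None of 6 erythroid markers was measured. Markers not measured are those absent from the deposited list, whose lowest mean was 9.28 normalized counts, so they may have been low or absent in these libraries. The part of these cells in the changes given here was not tested, and in bulk RNA fewer cells of a type cannot be told from less RNA per cell.

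Of the 10 family members, 4 fell in the libraries labelled Txn1 KO, 0 rose and 6 did not pass the test. The 4 were Mcl1 and Bcl2l1, which encode pro-survival proteins, Bak1, which encodes an effector, and Bad, which encodes a BH3-only protein, so that the falls lay on both sides of the balance. Each fall was small, between 0.884 and 0.922 of the wild-type mean, and no member changed 2-fold. Genes were called at an adjusted p under 0.05 (limma on log2(normalized count + 1), two-sided, Benjamini-Hochberg over 13977 genes). That threshold called 21.5% of all genes tested, 9.97% of them as lower, and 29.4% of the genes with a mean at or above that of the lowest member. The groups lay apart for 5 of 10 members, against 36.2% of all genes. The median log2 difference of the members was -0.03, beside -0.005 over all genes tested. The calls were fragile. With a prior that ignores the expression level (limma without a trend) 0 members were called, without the 2 libraries with liver transcripts 2 were (Mcl1 and Bad), and without wild-type library 3 only Bak1 was. Nothing in the labels ties the replicates to distinct animals or cultures, so each p-value reflects only variation among these libraries, and this may be technical.

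**Figure D1:**
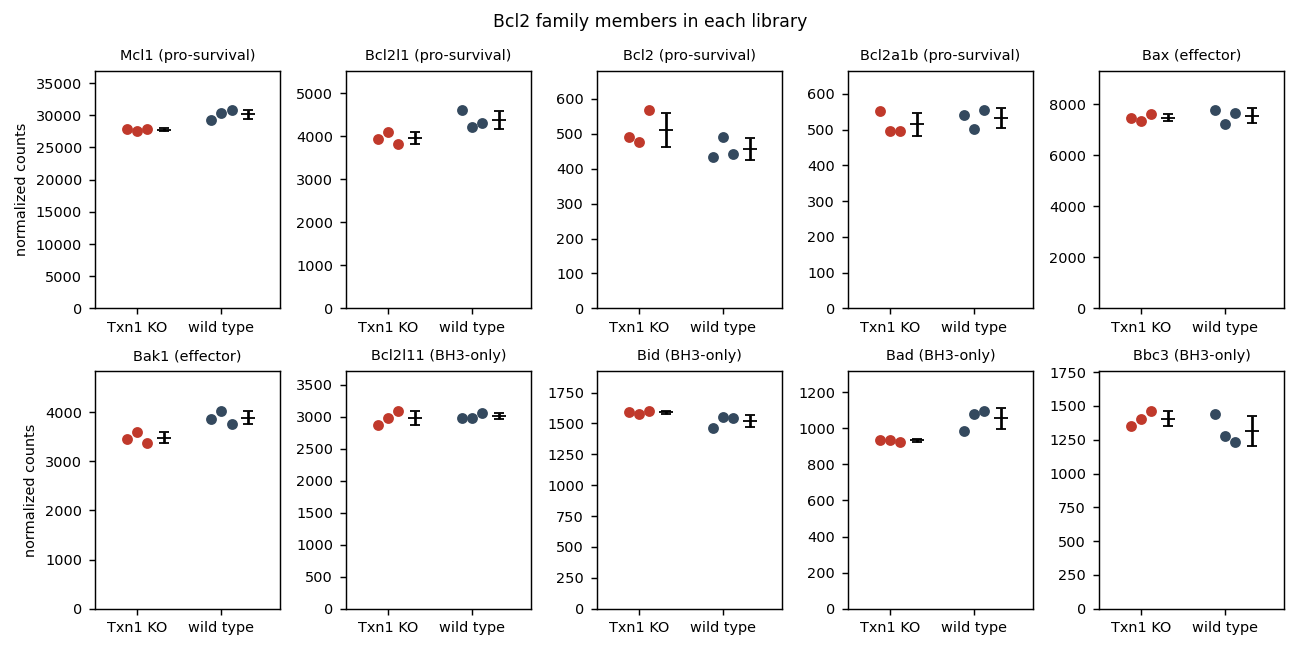
Normalized counts (y axis, from 0, own scale per panel) of the 10 members in the 3 libraries labelled Txn1 KO (red) and the 3 wild-type libraries (dark); the bar beside each group is mean ± SD. Mcl1, Bcl2l1, Bak1 and Bad lie lower in all 3 libraries labelled Txn1 KO, by amounts that are small beside the level itself.

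Among the pro-survival genes, Mcl1 (ENSMUSG00000038612, chromosome 3, 95658788 to 95663176) had 27918, 27519 and 27903 normalized counts in the libraries labelled Txn1 KO, against 29333, 30308 and 30772 in wild type. All 3 libraries labelled Txn1 KO lay below all 3 wild-type ones. The log2 change was -0.12 ± 0.031 (SE; limma adjusted p = 0.0120), and the call was lost without Txn1 KO library 2 (limma adjusted p = 0.0563) and without wild-type library 3 (0.0853). Bcl2l1 (ENSMUSG00000007659, chromosome 2, 152780668 to 152831728), which encodes Bcl-xL, had 3937, 4101 and 3830.2 normalized counts in the libraries labelled Txn1 KO, against 4605, 4208 and 4314 in wild type. The groups did not overlap, and the highest value belonged to wild-type library 1, one of the libraries with liver transcripts. The log2 change was -0.14 ± 0.042 (SE; limma adjusted p = 0.0190). It was -0.11 without wild-type library 1 (limma adjusted p = 0.0911) and -0.08 without both libraries with liver transcripts (limma adjusted p = 0.162), and the call was also lost without Txn1 KO library 1 (0.0612), Txn1 KO library 3 (0.0524) or wild-type library 3 (0.0512).

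Bcl2 itself (ENSMUSG00000057329, chromosome 1, 106538178 to 106714274), the founding member of the family, had 492, 475 and 567 normalized counts in the libraries labelled Txn1 KO, against 434, 491 and 442 in wild type. The groups overlapped, and the highest value belonged to Txn1 KO library 3. The log2 difference was 0.16 ± 0.082 (SE; limma adjusted p = 0.185), with a 95% interval of the ratio from 99.2% to 126% of wild type. It was 0.09 without Txn1 KO library 3 (limma adjusted p = 0.528) and 0.05 without both libraries with liver transcripts (0.741). Bcl2a1b (ENSMUSG00000089929, chromosome 9, 89199209 to 89207827), which encodes a form of A1, had 552, 497 and 495 normalized counts in the libraries labelled Txn1 KO, against 542, 501 and 554 in wild type. These values were interleaved (log2 -0.05 ± 0.073, limma adjusted p = 0.700), and the interval ran from 86.8% to 107% of wild type. Besides its copies, Bcl2a1b shares 401 exon bases (49.1%) with the same-strand gene Gm29094.

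Of the effectors, Bak1 (ENSMUSG00000057789, chromosome 17, 27019810 to 27029009) had 3456, 3594 and 3379 normalized counts in the libraries labelled Txn1 KO, against 3863, 4029 and 3765 in wild type. The groups did not overlap. The log2 change was -0.16 ± 0.040 (SE; limma adjusted p = 0.00772), the smallest p among the members, and it passed in each fit that left out 1 library (limma adjusted p = 0.00933 to 0.0449). Without both libraries with liver transcripts the change was -0.14 and missed the threshold (limma adjusted p = 0.0545). Bax (ENSMUSG00000003873, chromosome 7, 45461697 to 45466898) had 7438, 7346 and 7606 normalized counts in the libraries labelled Txn1 KO, against 7756, 7208 and 7663 in wild type. Bax values overlapped throughout (log2 -0.01 ± 0.036, limma adjusted p = 0.833), with a 95% interval of 93.9% to 104% of wild type. Whether the difference of Bak1 is unlike that of Bax was not tested. Bak1 shares 437 exon bases (18.2%) and 177 bases (7.35%) with 2 annotations of Ggnbp1 on the opposite strand, and Bax shares 192 bases (12.2%) with Gm45808 on its own strand.

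**Figure D2:**
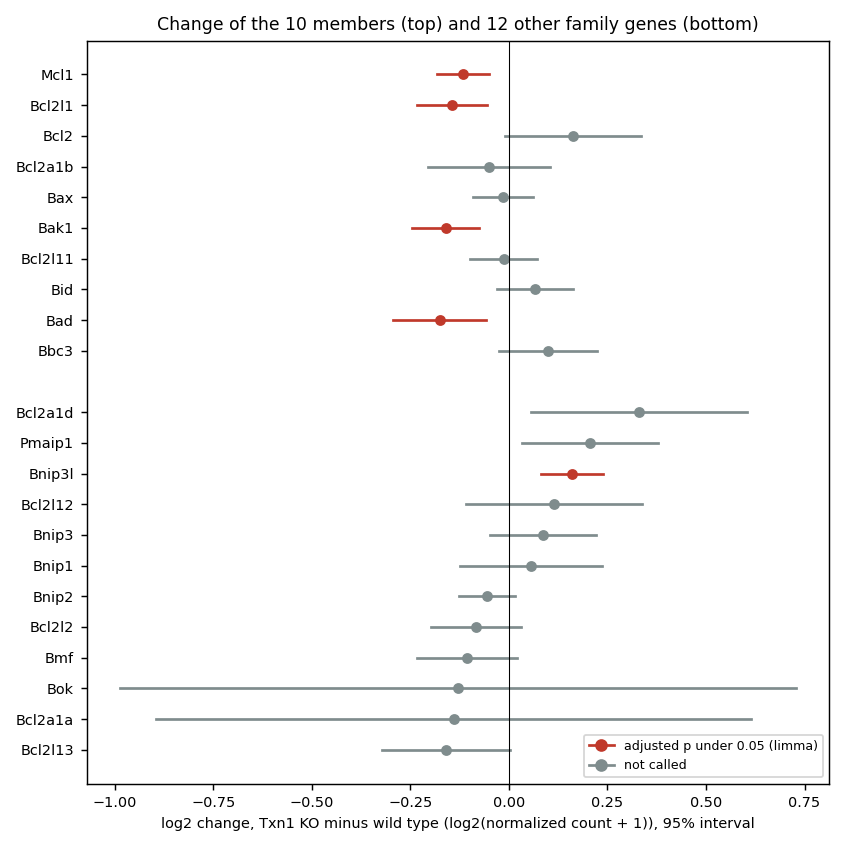
Log2 change (x axis, libraries labelled Txn1 KO minus wild type, log2(normalized count + 1), with 95% interval) of the 10 members by role and of 12 other family genes; red marks an adjusted p under 0.05 (limma). The 4 called members lie between -0.18 and -0.12, and the widest intervals belong to the low genes Bok and Bcl2a1a.

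Among the BH3-only genes, Bad (ENSMUSG00000024959, chromosome 19, 6941861 to 6951899), whose protein binds Bcl-xL and is held inactive by phosphorylation, had 938, 934 and 926 normalized counts in the libraries labelled Txn1 KO. Wild-type libraries had 986, 1079 and 1098, so the groups did not overlap. The log2 change was -0.18 ± 0.056 (SE; limma adjusted p = 0.0315), the largest fall of a member and the least secure call. Leaving out any 1 library other than wild-type library 1 lost it (limma adjusted p = 0.0541 to 0.155). Bad shares 524 exon bases (20.5%) with Gpr137 on the opposite strand, which had 845 to 1012 normalized counts in the libraries labelled Txn1 KO and 944 to 1078 in wild type. The sources used here do not state whether counting used strand, so reads of the shared part cannot be assigned to either gene.

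Bcl2l11 (ENSMUSG00000027381, chromosome 2, 128126038 to 128162547) encodes Bim, a direct activator of Bax and Bak. It had 2871, 2982 and 3097 normalized counts in the libraries labelled Txn1 KO, against 2980.4, 2987 and 3060.4 in wild type. The 3 wild-type values lay inside the range of the other group (log2 -0.01 ± 0.040, limma adjusted p = 0.870, interval 93.4% to 105% of wild type). Bbc3 (ENSMUSG00000002083, chromosome 7, 16308393 to 16318205) encodes Puma, a target of p53. Its values were 1351, 1404 and 1466 normalized counts in the libraries labelled Txn1 KO, against 1441, 1274 and 1233 in wild type. The groups overlapped because of wild-type library 1. The log2 difference was 0.10 ± 0.059 (SE; limma adjusted p = 0.272), and without that library it passed at 0.17 (limma adjusted p = 0.0495), while without wild-type library 3 it was 0.05 (0.664). For Trp53, the gene of p53, the log2 difference was -0.003 (limma adjusted p = 0.971) and turned to 0.003 with values rescaled to equal totals; this gene was chosen after its value was seen.

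Bid (ENSMUSG00000004446, chromosome 6, 120891930 to 120916853), whose protein links death receptors to mitochondria once caspase-8 has cut it, had 1590.5, 1577 and 1604 normalized counts in the libraries labelled Txn1 KO. In wild type it had 1462, 1549 and 1546. The groups did not overlap, yet the difference did not pass (log2 0.07 ± 0.045, limma adjusted p = 0.342, interval 98.0% to 112% of wild type), and it was 0.04 without wild-type library 1 (0.650). Bid shares 628 exon bases (17.7%) with its opposite-strand neighbour Bcl2l13, itself a family gene, whose log2 difference was -0.16.

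Levels of different genes were compared per kb of exon, taking the union of all annotated exons of a gene as its length. Mcl1 was highest, at 8127 ± 66.2 normalized counts per kb in the libraries labelled Txn1 KO and 8817 ± 215 in wild type (SD, n = 3 each). Bax followed at 4736 ± 83.9 and 4786 ± 186, then Bak1 at 1444 ± 45.2 and 1614 ± 55.6. Bcl2l1, the second of the pro-survival genes, stood at 863 ± 29.8 per kb in the libraries labelled Txn1 KO and 954 ± 44.8 in wild type. Below it, Bbc3 (662 and 619.7 per kb) and Bcl2a1b (629.8 and 652) could not be ranked, since their ranges over the 6 libraries overlapped. Bid (448 and 428), Bad (365 and 412) and Bcl2l11 (372 and 375) likewise ran into each other from one to the next. Bcl2 was lowest, at 55.8 ± 5.35 per kb in the libraries labelled Txn1 KO and 49.8 ± 3.38 in wild type, 7.07 times below Bcl2l11. Long annotated 3′ ends enter the length of Bcl2 and Bcl2l11 (9.157 and 8.029 kb), so their level per kb would be too low if shorter transcripts prevailed.

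**Figure D3:**
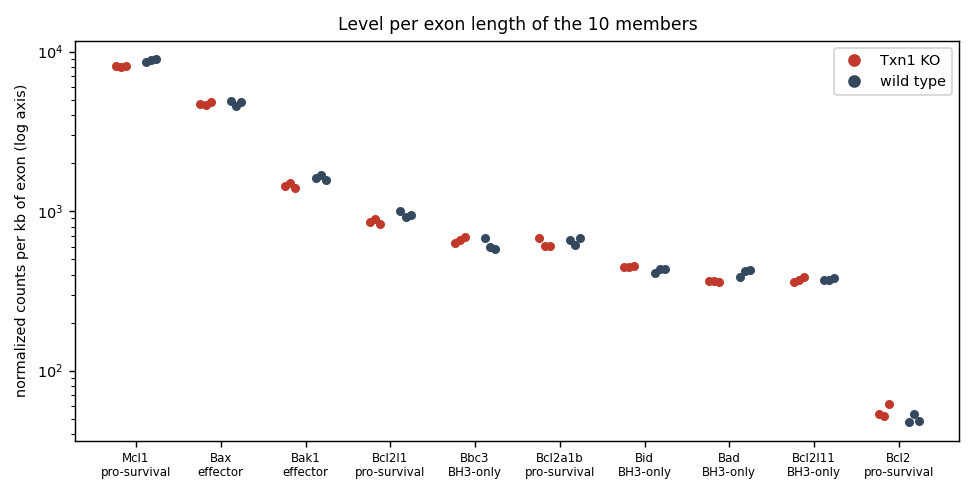
Normalized counts per kb of exon (log y axis) of the 10 members in each library, ordered by mean level; red points are libraries labelled Txn1 KO and dark points wild type. Mcl1 and Bax stand above the rest and Bcl2 stands lowest, in both groups.

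On this per-kb scale Mcl1 made up 83.7%, 83.8% and 84.4% of the summed pro-survival level in the libraries labelled Txn1 KO, against 83.3%, 84.8% and 84.4% in wild type. The 4 BH3-only genes summed to 0.185, 0.192 and 0.195 of the pro-survival sum in the libraries labelled Txn1 KO, against 0.179, 0.175 and 0.171 in wild type. These ratios did not overlap; the numerator did (1808 to 1890 per kb in the libraries labelled Txn1 KO and 1827 to 1847 in wild type), and the pro-survival sum was lower (9605 to 9755 against 10297 to 10670 per kb). The sum of the 2 effectors was also lower without overlap, at 6154 to 6230 per kb against 6247 to 6526 in wild type. The ratio of the 2 effectors to the pro-survival sum overlapped, at 0.631 to 0.645 against 0.598 to 0.634 in wild type. Bcl2l11 per Mcl1 was 0.0438, 0.0461 and 0.0472 in the libraries labelled Txn1 KO, against 0.0433, 0.0420 and 0.0423 in wild type. Of the other gene-to-gene ratios taken, Bcl2l11 per Bcl2l1 and Bcl2 per Mcl1 were higher without overlap, and Bak1 per Bax was lower. Each gene-to-gene ratio that lay apart holds Mcl1, Bcl2l1 or Bak1, whose own groups lay apart, as did those of 36.2% of all genes. Bax per Bcl2, Bak1 per Mcl1, Bak1 per Bcl2l1, Bad per Bcl2l1 and Bbc3 per Mcl1 overlapped between the groups. No test was made of these sums and ratios, which are built from the members already described and say nothing of protein.

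Of 18 other family genes listed, 12 were measured, 1 rose and 0 fell (median log2 0.00). That was 8.33% called, against 21.5% of all genes tested. Bcl2a1c, Bcl2l10, Bik, Hrk, Bcl2l14 and Bcl2l15 were not analysed here. Bnip3l, which encodes a mitochondrial receptor of mitophagy, was the one that rose, with 5708, 5609 and 5441 normalized counts in the libraries labelled Txn1 KO, against 4875, 5203 and 4926 in wild type (log2 0.16 ± 0.037, limma adjusted p = 0.00489). The groups did not overlap, and the call was lost with a prior that ignores the level (0.0862). Bnip3, its paralog, differed by 0.09 (limma adjusted p = 0.383).
Pmaip1, which encodes the BH3-only protein Noxa, had 584, 582 and 665 normalized counts in the libraries labelled Txn1 KO, against 473, 577 and 539.97 in wild type (log2 0.21 ± 0.081, limma adjusted p = 0.0849; 0.0475 without wild-type library 2). Its 3 values in the libraries labelled Txn1 KO lay above the others without passing the test, and without both libraries with liver transcripts the difference was 0.06 (limma adjusted p = 0.623). Bcl2a1d differed by 0.33 ± 0.13 (limma adjusted p = 0.0835) and is uncertain for its copies. Bmf, a BH3-only gene, and Bcl2l2, the pro-survival gene of Bcl-w, differed by -0.11 and -0.08. Bcl2l13 differed by -0.16 (limma adjusted p = 0.165), and without Txn1 KO library 2 it passed at -0.26 (0.0144), while without Txn1 KO library 1 it was -0.08 (0.527). Bnip2 (-0.06, groups apart), Bcl2l12 (0.11) and Bnip1 (0.06) did not pass either. Bcl2a1a and Bok were near the floor of detection, with 12.4 to 20.2 and 8.61 to 19.7 normalized counts in the libraries labelled Txn1 KO and 17.1 to 20.1 and 14.8 to 19.4 in wild type, where 3 reads correspond to 2.33 to 4.04 normalized counts.

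Downstream of mitochondria, 3 of 13 genes of the apoptosome and the caspases fell and 0 rose (median log2 -0.10). That was 23.1% called, near the 21.5% of all genes tested. Most genes of this list and of the lists below have a mean at or above that of the lowest member. In that range 29.4% of genes were called. Htra2, which encodes a mitochondrial protease released in apoptosis, had 3229.6, 3231 and 3229.9 normalized counts in the libraries labelled Txn1 KO, against 3652, 3530.4 and 3598 in wild type (log2 -0.15, limma adjusted p = 0.00538). Casp9, the initiator caspase of the apoptosome, fell by 0.16 (log2, limma adjusted p = 0.0296), and Dffa, the inhibitor of the apoptotic nuclease, fell by 0.21 (limma adjusted p = 0.0478). The call of Dffa was lost in the authors' deposited table (adjusted p = 0.0690), with edgeR (0.0575) and with DESeq2 (0.0675). Leaving out Txn1 KO library 3 or any wild-type library lost Dffa (limma adjusted p = 0.0872 to 0.211). Dffa had 809, 809 and 663 normalized counts in the libraries labelled Txn1 KO, against 908, 861 and 863 in wild type, and its change was -0.12 without Txn1 KO library 3 and -0.09 without both libraries with liver transcripts. For Casp9, leaving out any library but Txn1 KO library 3 lost the call (limma adjusted p = 0.0554 to 0.124). Apaf1, the scaffold of the apoptosome, differed by 0.14 (limma adjusted p = 0.0739; 0.07 in log2 without both libraries with liver transcripts) and was chosen after its values were seen. Among 8 inhibitors of apoptosis 3 rose and 0 fell (median 0.08). That was 37.5% called, against 21.5% of all genes tested and 29.4% of those at or above the lowest member. No test was made of this count. Birc3, which encodes cIAP2, rose by 0.15 (limma adjusted p = 0.0220). Naip5 and Naip6, related sensor genes, rose by 0.21 and 0.20. Their sequences were not compared here, and both are uncertain if they share reads. With both libraries holding liver transcripts left out, these 3 were not called (log2 0.13 and limma adjusted p = 0.0857 for Birc3, 0.15 and 0.140 for Naip5, 0.10 and 0.273 for Naip6). Birc3 was also not called without Txn1 KO library 2 (limma adjusted p = 0.0641), Txn1 KO library 3 (0.0536), wild-type library 1 (0.0581) or wild-type library 3 (0.0808). Naip6 was lost without the same 4 libraries (limma adjusted p = 0.0507 to 0.129), and Naip5 without wild-type library 2 (0.0566).

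In the death receptor pathway 1 of 10 measured genes rose and 1 fell (median 0.04), 20% called against 21.5% of all genes tested. Tnfrsf1a, the TNF receptor 1 gene, rose by 0.13 (limma adjusted p = 0.0139; 0.0664 without wild-type library 2), and Ripk1, the kinase it recruits, fell by 0.19 (limma adjusted p = 0.0196; 0.129 without wild-type library 3, and 0.0535 and 0.0548 without Txn1 KO library 1 and library 2). Of 17 mitochondrial partners of the family 2 rose and 0 fell (median 0.00), 11.8% called and so below the share of all genes. Vdac2, which encodes the channel that holds Bak at mitochondria, had 11321, 11562 and 11559 normalized counts in the libraries labelled Txn1 KO, against 10897, 10361 and 10579 in wild type (log2 0.11, limma adjusted p = 0.0183). Tmbim4, a Bax inhibitor motif gene, rose by 0.17 (limma adjusted p = 0.0342). Neither was called without wild-type library 2 or 3 (limma adjusted p = 0.0730 to 0.182), Vdac2 was not without Txn1 KO library 2 (0.0670), and Tmbim4, whose groups overlapped, was not without Txn1 KO library 1 (0.110) or library 3 (0.0606).

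Of 28 measured regulators of the family, 7 rose and 3 fell (median -0.01). That was 35.7% called, against 21.5% of all genes tested and 29.4% of those with a mean at or above the lowest member. No test was made of this count. Ddit3, which encodes CHOP, an inducer of Bim and repressor of Bcl2 under endoplasmic reticulum stress, had 1727, 1572 and 1649.95 normalized counts in the libraries labelled Txn1 KO, against 2383, 2213 and 2178 in wild type (log2 -0.45 ± 0.049, limma adjusted p = 3.02e-06). Fbxw7, the ubiquitin ligase subunit that marks Mcl-1 for degradation, had 1144, 1115 and 1178 normalized counts in the libraries labelled Txn1 KO, against 768, 831 and 857 in wild type (log2 0.49 ± 0.057, limma adjusted p = 7.23e-06). Neither pair of groups overlapped. Pim1, a kinase that phosphorylates Bad, rose by 0.31 (limma adjusted p = 1.01e-05), and Bag3, a co-chaperone of the Bcl-2 binding BAG family, rose by 0.25 (limma adjusted p = 0.000505).

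In the ASK1 and JNK pathway 2 of 14 genes rose and 1 fell (median 0.09), 21.4% called against 21.5% of all genes tested. Dusp1, the phosphatase that switches off JNK and p38, had 1868, 1858 and 1869 normalized counts in the libraries labelled Txn1 KO, against 957, 925 and 1049 in wild type (log2 0.93 ± 0.053, limma adjusted p = 8.10e-10). It was the largest change among the genes of these lists that passed. Mapk9, which encodes JNK2, rose by 0.26 (limma adjusted p = 0.000686), and Daxx, an adaptor that can activate ASK1, fell by 0.38 (limma adjusted p = 0.000173). Map3k5, the gene of ASK1 itself, had 461, 495 and 435 normalized counts in the libraries labelled Txn1 KO, against 443, 504 and 465 in wild type (log2 -0.02, limma adjusted p = 0.885), and was chosen after its values were seen.

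**Figure D4:**
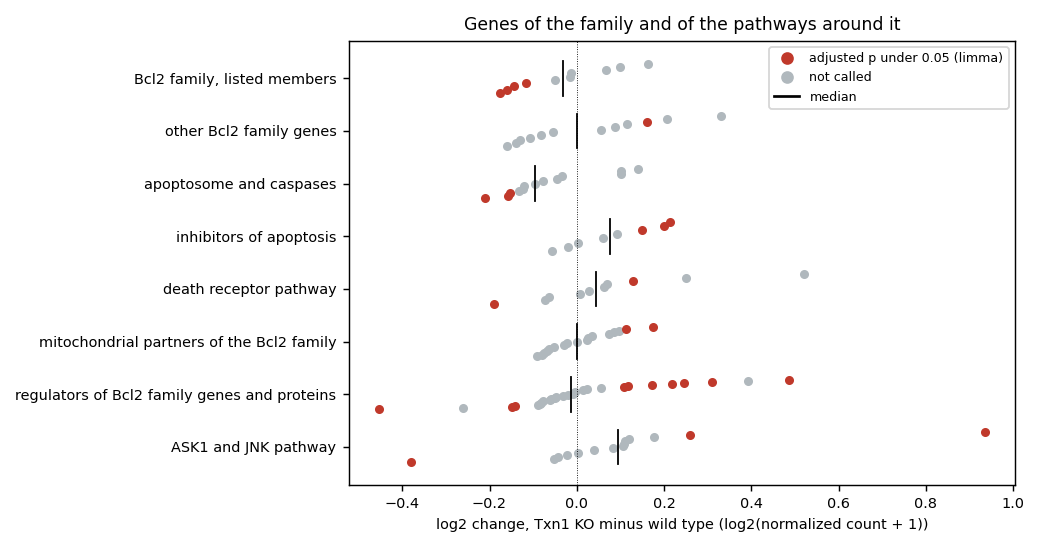
Log2 change (x axis, libraries labelled Txn1 KO minus wild type) of every measured gene of the family and of the lists around it; red points passed at an adjusted p under 0.05 (limma) and the black line is the list's median. Of 112 measured genes, 95 lie within 0.2 of 0, and Dusp1, at 0.93, lies farthest out.

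By pattern over the 6 libraries, the genes most like Bak1 were Arhgap10, Amz2 and Ncor1 (Pearson r = 0.991, 0.991 and 0.989 of log2 values), and those most like Mcl1 were Pik3cg, Zfp740 and Phf11b (r = 0.994, 0.993 and 0.992). With 6 libraries in 2 groups such values are common: 100 genes exceeded r = 0.95 with Bak1 and 178 with Mcl1, among genes with a mean of at least 50. They are a description only.

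**Figure D5:**
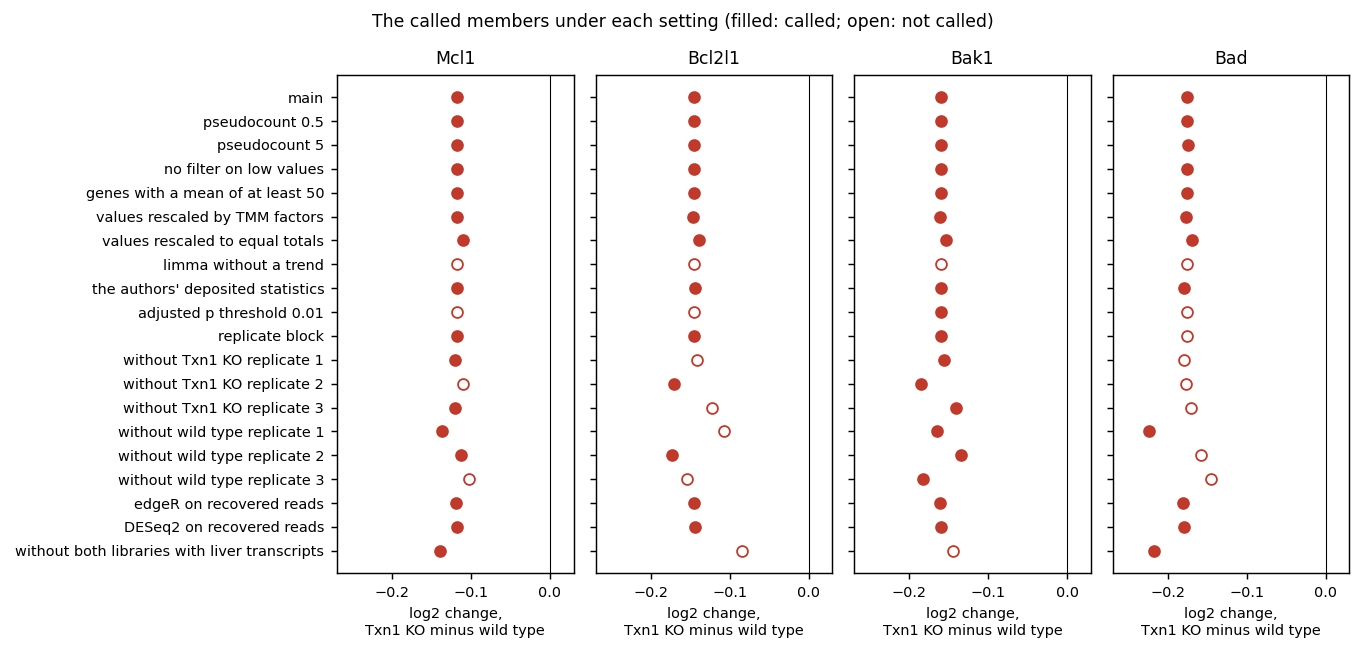
Log2 change (x axis, libraries labelled Txn1 KO minus wild type) of the 4 called members under each setting (rows); filled points were called in that setting and open points were not. The call is lost in 4 rows for Mcl1, 7 for Bcl2l1, 2 for Bak1 and 8 for Bad. The direction stays below 0 in every row shown, which was fixed in advance for rows that reuse the estimate or leave libraries out.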

How the data were processed

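The submitters' processing notes name bcl2fastq 2.20, Trimmomatic 0.36, STAR 2.5.2b, DESeq2 without a version, and the mouse build GRCm38 (mm10). The per-library signal deposited by the authors is a count scaled by one size factor per library: 100% of values were whole multiples of their library's step, at a tolerance of 0.01 reads. The authors' deposited table also gives log2 fold changes and p-values, raw and adjusted. Columns were matched to samples by group and number; control columns name only BMDM.

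limma 3.58.1 (R 4.3.3, trended prior) was fitted on log2(normalized count + 1) for 13977 genes averaging at least 10, a scale on which changes of low genes are understated. Alternatives included edgeR 4.0.16 and DESeq2 1.42.0 on recovered reads and the fit without both libraries with liver transcripts, all chosen after seeing the data; edgeR called 2969 genes. The code was tested on simulated data. Positions, exon lengths and transcript sequences came from GENCODE M21 (13972 of 14005 genes matched). Members and lists were chosen with earlier results of these data known. Named genes are the members, the other family genes measured, up to 4 called genes with the smallest p per further list, and the 3 genes most like Bak1 and Mcl1; exceptions are marked.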

Additional observations from a re-analysis of the deposited data

How the results depend on the processing

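Across the 19 other settings the 4 called members kept their direction. For most settings this was fixed in advance. Several reuse the same log2 estimate, and groups that lie apart cannot change direction when libraries are left out. Limma without a trend called 1525 genes (923 higher, 602 lower), 0 members (adjusted p = 0.0934 to 0.150; log2 -0.14 for Bcl2l1, -0.12 for Mcl1, -0.16 for Bak1 and -0.18 for Bad), 0 genes of the other family, apoptosome, inhibitor, death receptor and mitochondrial lists, 5 regulators and 2 genes of the ASK1 and JNK list. At a threshold of 0.01 there were 1833 genes (1024 higher, 809 lower), 1 member (Bak1), 1 apoptosome gene, 6 regulators and 0 inhibitors, death receptor genes and mitochondrial partners. Without both libraries with liver transcripts 2191 genes, 2 members and 0 inhibitors were called (Bcl2l1 -0.0845, Bak1 -0.14), and Txn1 (0.005) and Trp53 (0.0283) turned. Trp53 also turned with equal totals (0.0032). The apoptosome list had 2 calls with equal totals, edgeR, DESeq2, the authors' statistics and the block.

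Leaving out 1 library at a time gave 1 to 4 members, 891 to 1304 genes lower, 1 to 2 other family genes, 1 to 2 apoptosome genes, 1 to 3 inhibitors, 1 to 2 death receptor genes, 0 to 2 mitochondrial partners and 6 to 10 regulators. Log2 changes then ran from -0.17 to -0.11 for Bcl2l1, -0.14 to -0.10 for Mcl1, -0.18 to -0.13 for Bak1, -0.22 to -0.15 for Bad, -0.0469 to 0.006 for Bax, -0.0402 to 0.0143 for Bcl2l11, 0.053 to 0.17 for Bbc3, -0.2834 to 0.045 for Bcl2a1a, -0.3239 to 0.2297 for Bok, -0.023 to 0.1289 for Bnip1, -0.0507 to 0.0075 for Txn1, -0.023 to 0.0137 for Trp53 and -0.0697 to 0.0276 for Map3k5. The causes were not tested.

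Same-numbered libraries did not deviate together (r = -0.19, 0.01 and -0.25), and 0 of 6 libraries correlated best with their own number. The highest r, 0.32, joined Txn1 KO library 3 and wild-type library 1, which both held liver transcripts. Such transcripts enter these deviations, so the check cannot exclude a preparation shared by number. The numbers are used here to name libraries only. With the replicate number as a block 2675 genes and 3 members were called, Bad being left out at -0.18 (adjusted p = 0.0515).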

Other observations

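Within the Bcl2a1 copies, the share of reads assigned to Bcl2a1b was 77.0%, 74.4% and 70.9% in the libraries labelled Txn1 KO, against 78.1%, 78.6% and 78.3% in wild type. The sum of Bcl2a1a, Bcl2a1b and Bcl2a1d was 694 ± 24.5 normalized counts in the libraries labelled Txn1 KO and 679.8 ± 36.9 in wild type (SD, n = 3 each). The split between copies that are 97.9% to 98.8% identical depends on how reads were assigned, and this was not tested.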
